A study of Mus musculus with 5 samples.

Results

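Astrocytes share the midbrain with the dopaminergic neurons from which the RNA of this study was meant to come, and 10 genes that mark them were followed here through every library. They were Aldoc, Glul and Aldh1l1 (metabolism), Gfap and Vim (intermediate filaments), Slc1a2 and Slc1a3 (glutamate uptake), Aqp4 and Gja1 (a water channel and a gap junction protein) and S100b (calcium binding). Each was found by its symbol among the 53700 gene identifiers of the count table, all 10 were present, and all 10 passed the filter on low values. They were taken by name, with no threshold on a measured value.

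The question of the study was which transcripts of midbrain dopaminergic neurons change when Esrrg is deleted in the adult. Esrrg encodes ERRγ, an orphan nuclear receptor that drives genes of oxidative metabolism. Ribosome-bound RNA was purified by BAC-TRAP, in which an antibody pulls down ribosomes whose protein L10a carries EGFP in cells that have Cre recombinase. The 5 libraries came from C57BL/6 mice aged 4 months, as 3 of genotype L10a;Esrrg WT (replicates 2, 3 and 4) and 2 of genotype L10a;Esrrg Flox (replicates 2 and 4). All mice of both genotypes carried the tag and received AAV:THCre in the midbrain, and tissue was taken 1 month after the deletion. Cre was thus placed by a virus with a tyrosine hydroxylase promoter and not by a germline transgene, and each library pooled midbrains of several mice. P-values therefore measure the spread between pools. Uninjected animals and RNA that was not bound by the antibody were not analysed here, so levels are given without an enrichment over whole midbrain.

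Astrocytes clear glutamate from synapses, turn it into glutamine, buffer potassium and water at their endfeet on blood vessels, and share small molecules through gap junctions. After injury or near dying neurons they become reactive, and the rise of the intermediate filament proteins GFAP and vimentin is the classical sign of that state. Neither protein is made by healthy dopaminergic neurons in quantity, and vimentin is also a protein of endothelial cells, fibroblasts, ependymal cells and activated microglia.

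The promoters of the filament pair are shown because only 1 of these classical reactive genes, Vim, passed the test between the genotypes. They are RefSeq sequences of build GRCm38.p6, from 250 bases before to 50 bases after the start of the transcript and read 5′ to 3′ on the strand of the gene. Gfap lies on the minus strand (chr11:102897151-102897450) and Vim on the plus strand (chr2:13574061-13574360). Capitals mark the 1 match to TTCNNNGAA, the core of STAT binding sites, in Gfap and the 1 match to TATAAA, known as a TATA box, in Vim.

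Gfap: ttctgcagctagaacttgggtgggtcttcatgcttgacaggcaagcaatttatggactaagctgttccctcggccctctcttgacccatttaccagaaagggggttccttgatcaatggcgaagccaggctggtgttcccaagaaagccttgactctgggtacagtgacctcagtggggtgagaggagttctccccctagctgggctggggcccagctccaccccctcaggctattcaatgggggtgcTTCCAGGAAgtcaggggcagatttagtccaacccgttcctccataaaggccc
Vim: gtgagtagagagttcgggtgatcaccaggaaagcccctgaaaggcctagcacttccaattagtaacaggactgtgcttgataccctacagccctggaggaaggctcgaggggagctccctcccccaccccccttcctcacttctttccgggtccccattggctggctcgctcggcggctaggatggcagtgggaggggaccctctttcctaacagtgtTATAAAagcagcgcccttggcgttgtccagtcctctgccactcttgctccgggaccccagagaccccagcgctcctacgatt

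Of the 10 genes, 9 had a promoter in the RefSeq table and they gave 10 promoters, because Aldoc has a pair of them. Both strands were searched with 5 motifs. The ERR response element AAGGTCA, bound by ERRγ, was in 0 of the 10 promoters, against 4.72% of the 32851 mouse promoters of the same length. TTCNNNGAA was found in 3 of the 10 (Aldoc, Gfap and Slc1a3), against 8.30% of all promoters, and TATAAA in 2 of the 10 (Vim and Slc1a3), against 13.6%. The GC box GGGCGG was in 4 of the 10 (35.7% of all promoters) and the AP-1 element TGANTCA in 1 of the 10, Gja1 (7.81% of all). Within the windows of Gfap and Vim the marked matches were the only ones of the 5 motifs, so none overlapped. The motifs other than AAGGTCA were chosen after the data were seen. A match in these letters is a description of the sequence and not a binding site, and the absence of a match covers this window only.

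Depth was even, with 20635855 to 23105058 counts assigned to genes per library, and the lowest count of any of the 10 genes in any library was 680.0. Esrrg itself had 1763, 1643 and 1726 normalized counts in WT replicates 2, 3 and 4, and 1504 and 1170.1 in Flox replicates 2 and 4. Both Flox libraries lay below all WT libraries, as they did for 22.5% of all genes tested, with a log2 fold change of -0.35 (SE 0.13, DESeq2 adjusted p = 0.0753), and since the floxed stretch is only part of the gene, counts over the whole gene do not measure the deletion. Normalized counts are counts divided by the DESeq2 size factor of the library. Markers of the targeted cells were present, and the 11 dopaminergic markers (Th, Slc6a3 and others) summed to between 1928 and 2181 CPM (counts scaled to the assigned total of a library) per library with none at 0. Of the 11, 9 had a negative fold change (median -0.18) and 3 had an unadjusted p under 0.05. As lower in Flox 1 passed, Ret (log2 fold change -0.40, DESeq2 adjusted p = 0.00291), against 4.05% of all genes tested. That count was 0 in edgeR and without WT replicate 2. Without Flox replicate 4 the median log2 fold change of the 11 was -0.18.

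The astrocyte genes were abundant in this purified RNA. Together the 10 genes took 0.527%, 0.464% and 0.651% of the assigned counts in WT replicates 2, 3 and 4, and 0.482% and 0.608% in Flox replicates 2 and 4. The groups overlapped in this share. Levels of different genes were compared as WT normalized counts per kilobase of exon, with a rank among 15705 genes. On that scale Aldoc led with 10882 ± 1727 per kilobase (SD, n = 3, rank 70), followed by Glul with 8778 ± 1751 (rank 98). These neighbours differed by less than their SDs combined. Within every library, though, Glul was below Aldoc, with 77.3 to 86.9 counts per 100 of Aldoc. Their exon lengths were similar, with 3323 bases for Glul and 3263 for Aldoc. Gfap had 6122 ± 1645 per kilobase (rank 167) and S100b 5551 ± 803 (rank 189), a pair whose spreads overlapped too. All 4 were higher per kilobase than Th, the enzyme that defines the targeted neurons, which had 4731 ± 636 (rank 240). For Gfap and S100b the distance from Th was smaller than the SDs combined, and for Aldoc and Glul it was larger.

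The other genes lay far lower on the same per-kilobase scale. Slc1a2 stood at 686 ± 82.9 per kilobase and Aqp4 at 678 ± 153, which is well within their spread. The means of Aldh1l1 (306 ± 65.5), Gja1 (302 ± 64.3) and Slc1a3 (279 ± 50.6) also differed by less than their SDs. Their order within single libraries was not compared. Vim came last with 177 ± 42.2 per kilobase (rank 5353). In the Flox libraries its mean was 509.8 per kilobase, so that it stood above those 3 genes there.

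**Figure D1:**
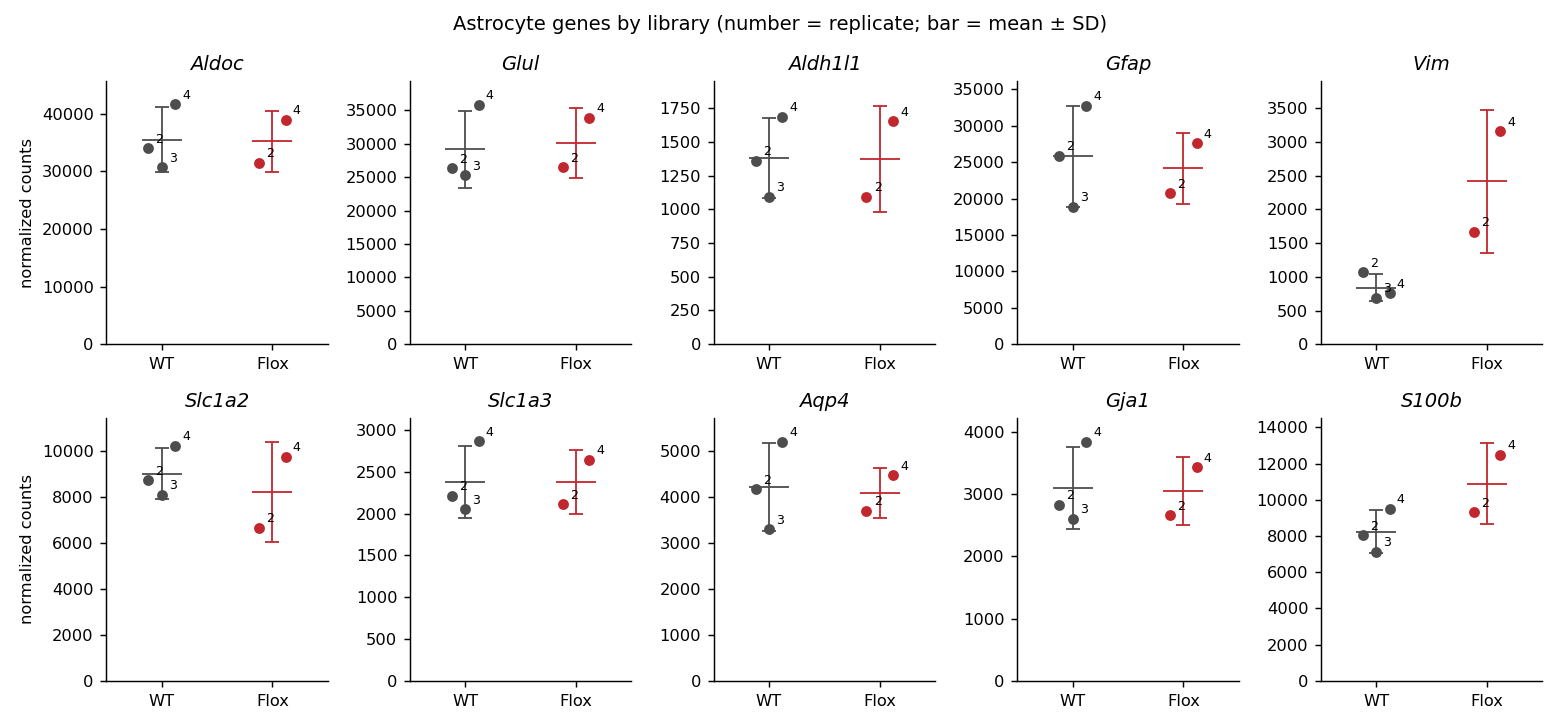
Normalized counts of the 10 astrocyte genes, 1 panel per gene, with 1 point per library (3 WT and 2 Flox, replicate numbers beside the points) and bars for the mean ± SD of each group, on a linear axis from 0. In 9 of 10 panels the libraries numbered 4 are the highest of their group and the genotypes overlap, and only in the Vim panel do both Flox points lie above all WT points.

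In the comparison of genotypes, Vim was higher in Flox and the other 9 genes did not pass the test. Over all genes tested, DESeq2 gave an adjusted p under 0.05 to 8.25% of 15724 genes, 4.2% as higher and 4.05% as lower in Flox, so that 1 of 10 is close to that background. In edgeR, which gave an adjusted p under 0.05 to 1.42% of genes, 1 of 10 passed as well, again Vim (adjusted p = 0.0440). The median log2 fold change of the 10 genes was -0.0099 (4 higher and 6 lower), against -0.00626 for all genes tested. Since whole pools were sequenced, fewer cells of a type and less RNA per cell cannot be told apart for any value given here. The share of RNA that came from cells without the tag was not measured, so levels are those of the pulled-down RNA.

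None of the metabolic genes passed the test. Aldoc, the brain form of the glycolytic enzyme aldolase (ENSMUSG00000017390.16, chromosome 11), had 34058, 30738 and 41726 normalized counts in WT replicates 2, 3 and 4, and 31491 and 38992 in Flox replicates 2 and 4. The Flox values lay inside the WT range. Its log2 fold change of Flox against WT was -0.011 (SE 0.14), with a 95% interval from -0.29 to 0.27 and a DESeq2 adjusted p of 0.982. Glul, the glutamine synthetase that converts glutamate to glutamine (ENSMUSG00000026473.17, chromosome 1), had 26339.8, 25310.3 and 35862 normalized counts in WT and 26476 and 33886 in Flox. The genotypes overlapped again, and the log2 fold change was 0.049 (95% interval -0.26 to 0.36). Aldh1l1, a folate enzyme that is a widely used marker of all astrocytes (ENSMUSG00000030088.16, chromosome 6), had 1360.1, 1094 and 1685 normalized counts in WT and 1092 and 1651 in Flox. Flox replicate 2 was the lowest library, just under WT replicate 3, and Flox replicate 4 lay inside the WT range. The log2 fold change was -0.009 (95% interval -0.40 to 0.38).

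Of the intermediate filament genes Vim passed the test and Gfap did not, and the difference between their changes was not tested. Gfap, the filament that defines mature and reactive astrocytes (ENSMUSG00000020932.15, chromosome 11), had 25860.4, 18865 and 32741 normalized counts in WT and 20722 and 27584 in Flox. Both Flox libraries fell inside the WT range, which was wide, and the log2 fold change of -0.096 (SE 0.29) had a 95% interval from -0.67 to 0.47 with a DESeq2 adjusted p of 0.917. The data therefore leave room for a change of Gfap between 0.63 and 1.39 times the WT level. Vim, the filament that GFAP assembles with in reactive cells (ENSMUSG00000026728.10, chromosome 2), had 1067, 693 and 758 normalized counts in WT and 1671 and 3165 in Flox. Both Flox libraries stood above every WT library, an arrangement in that direction that 19.9% of all genes tested also showed.

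Vim rose 2.88-fold in Flox (95% interval 1.63 to 5.08). Its mean went from 839 ± 200.0 normalized counts (SD, n = 3) to 2418 ± 1057 (SD, n = 2), a log2 fold change of 1.53 (SE 0.42, DESeq2 adjusted p = 0.00764). With the further demand of a change of at least 1.5-fold, the threshold of the study, Vim was in the 1.77% of genes called higher (1.41% were called lower). The call was lost when WT replicate 3 was left out (log2 fold change 1.40, adjusted p = 0.0964) and when WT replicate 4 was left out (1.45, adjusted p = 0.0667). Without Flox replicate 4 the difference shrank to 0.99 on the log2 scale. That fit holds a single Flox library, so its p-value does not measure the spread between Flox pools and is not given. An exact permutation test of 3 against 2 libraries cannot go below 0.1 and was not used.

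Per 100 counts of Gfap in the same library, Vim had 4.13, 3.67 and 2.32 counts in WT and 8.06 and 11.5 in Flox. This ratio does not depend on the scaling of the libraries. Its groups did not overlap, as those of Vim alone did not, so it adds little to them. The ratio was calculated after the values had been seen, and the share of other genes that separate per count of Gfap was not calculated.

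Markers of other cells that make vimentin moved in the same libraries. The 12 microglial markers (C1qa, Csf1r, Tmem119 and others) summed to 138, 171 and 85.0 CPM in WT and 299 and 647 CPM in Flox, and none was at 0 in any library. As higher in Flox 10 of the 12 passed, against 4.2% of all genes tested. The 8 endothelial markers (Cldn5, Pecam1 and others) summed to 7.22, 13.4 and 5.76 CPM in WT and 13.6 and 33.9 CPM in Flox, with 3 of 8 passing as higher and none at 0. Both lists were highest in Flox replicate 4, as were Vim and S100b. The share of all genes that were highest in that library was not calculated. The count of 10 microglial markers went to 3 without WT replicate 2, to 5 without WT replicate 4 and to 0 without Flox replicate 4, where 7 received an adjusted p. The 3 endothelial calls went to 1 without WT replicate 2, and no endothelial marker received an adjusted p without WT replicate 4 or Flox replicate 4. Mural cell markers passed in 0 of 6 (11.5 to 29.8 CPM in WT, 24.8 and 36.0 in Flox). Fibroblast markers passed in 0 of 3 tested (8.05 to 26.3 CPM in WT, 31.6 and 10.5 in Flox), and ependymal markers in 0 of 3 tested (18.8 to 23.9 CPM in WT, 21.2 and 23.8 in Flox), of which Tmem212 was at 0 in a library. In DESeq2 the mural, fibroblast and ependymal lists had no gene with an unadjusted p under 0.05. In edgeR 7 of the 12 microglial markers and none of the other 4 lists passed. The part of these cells in the rise of Vim was not tested.

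**Figure D2:**
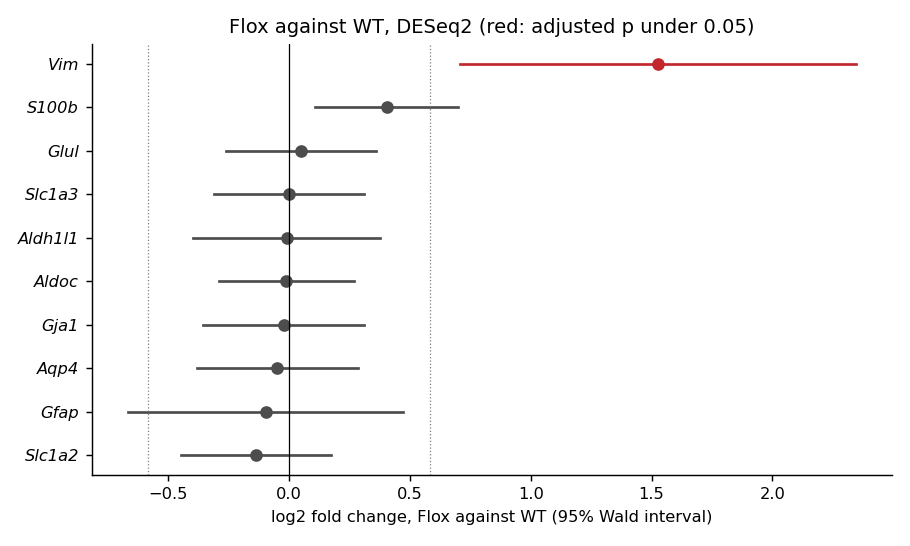
Log2 fold changes of Flox against WT for the 10 astrocyte genes (points, with 95% Wald intervals as lines) ordered by size, with a solid line at no change, dotted lines at 1.5-fold and red for an adjusted p under 0.05. The interval of Vim (0.71 to 2.35) and that of S100b (0.11 to 0.70) lie above 0, and the other 8 intervals hold 0.

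Neither glutamate transporter of astrocytes passed the test. Slc1a2, which encodes GLT-1 and carries most glutamate uptake in the forebrain (ENSMUSG00000005089.16, chromosome 2), had 8714, 8094 and 10212 normalized counts in WT and 6651 and 9727 in Flox. Flox replicate 2 was the lowest of all 5 libraries and Flox replicate 4 lay inside the WT range, and the log2 fold change was -0.14 (95% interval -0.45 to 0.17, DESeq2 adjusted p = 0.720). Slc1a3, which encodes GLAST (ENSMUSG00000005360.15, chromosome 15), had 2215, 2052 and 2868 normalized counts in WT and 2111 and 2646 in Flox. Its means were 2378 ± 432 and 2379 ± 378, and the 95% interval of the log2 fold change ran from -0.31 to 0.31.

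Neither the channel nor the junction gene passed the test, with adjusted p of 0.929 and 0.970 in DESeq2. Aqp4, the water channel of astrocyte endfeet (ENSMUSG00000024411.12, chromosome 18), had 4178, 3297 and 5207 normalized counts in WT and 3700.4 and 4477 in Flox. Gja1, the gene for the gap junction protein connexin 43 (ENSMUSG00000050953.11, chromosome 10), had 2829.8, 2607 and 3845 normalized counts in WT and 2664 and 3433 in Flox. For both genes the Flox libraries lay inside the WT range. Their log2 fold changes were -0.048 for Aqp4 (95% interval -0.38 to 0.28) and -0.022 for Gja1 (95% interval -0.35 to 0.31).

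S100b, a calcium-binding protein that astrocytes make and release (ENSMUSG00000033208.8, chromosome 10), came closest to the threshold after Vim. It had 8058, 7146 and 9509 normalized counts in WT and 9312 and 12495 in Flox. Flox replicate 4 was the highest library, and Flox replicate 2 lay below WT replicate 4, so the groups overlapped. The mean was 8237 ± 1192 in WT and 10904 ± 2250.4 in Flox, with a log2 fold change of 0.40 (SE 0.15, 95% interval 0.11 to 0.70) and a DESeq2 adjusted p of 0.0733, which misses the threshold of 0.05. S100b passed when WT replicate 4 was left out (log2 fold change 0.52, adjusted p = 0.00679). With Flox replicate 4 as the only Flox library its log2 fold change rose to 0.60. With only Flox replicate 2 it fell to 0.17. A single Flox library shows no spread between Flox pools, so p-values of these fits are left out. Oligodendrocytes make S100B as well, and 0 of their 8 markers passed in DESeq2 or edgeR (0 at an unadjusted p under 0.05 in either). Without WT replicate 4, where S100b passed, 2 of the 8 passed as higher (5 at an unadjusted p under 0.05). Without Flox replicate 2 the oligodendrocyte markers had a median log2 fold change of 0.21, against 0.097 with all libraries. Their part in the S100b values was not tested.

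**Figure D3:**
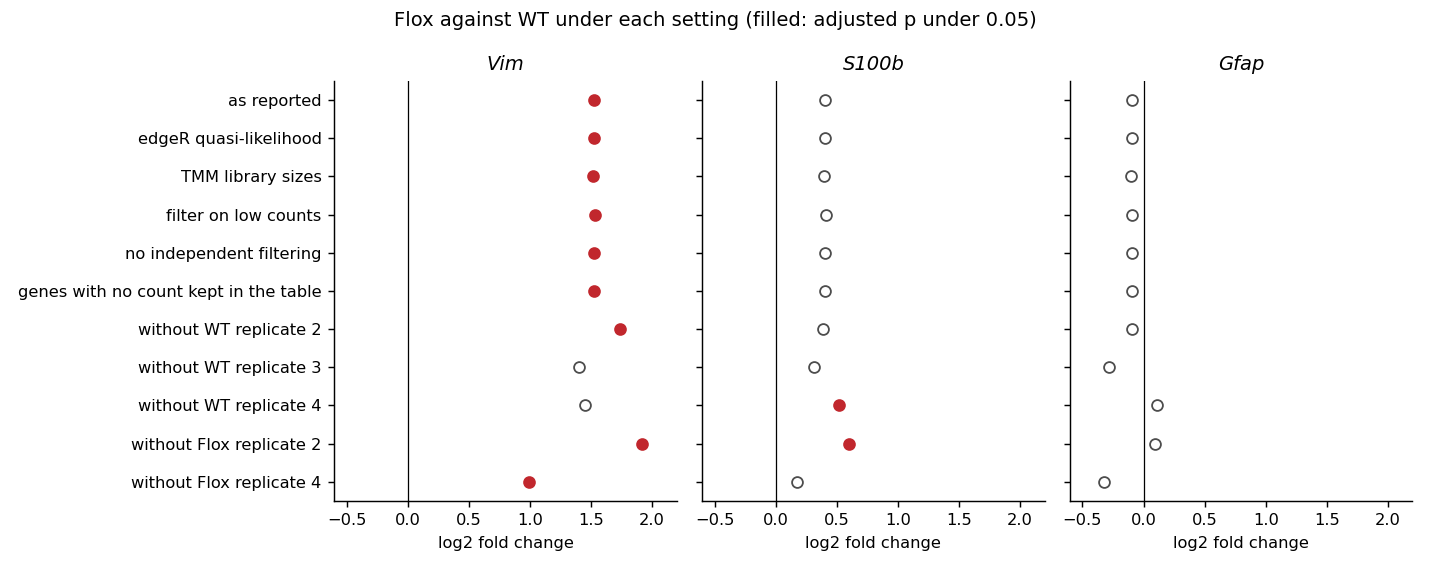
Log2 fold changes of Flox against WT for Vim, S100b and Gfap (panels) as reported and under alternative tools, filters and left-out libraries (lines of each panel), with filled points for an adjusted p under 0.05. Vim runs from 0.99 to 1.92 and S100b from 0.17 to 0.60 and both are always above 0, while Gfap falls on both sides of 0 and never passes. Points without a Flox library rest on a single Flox library, so their fill does not measure the spread between Flox pools.

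Among the 10 genes the spread within a genotype followed the library number. In 9 of 10, all but Vim, WT replicate 4 was the highest WT library and Flox replicate 4 the higher Flox library, against 22.8% of the 15724 genes tested. WT replicate 4 exceeded the mean of WT replicates 2 and 3 by a factor between 1.22 (Slc1a2) and 1.46 (Gfap) in these 9 genes, and Flox replicate 4 exceeded Flox replicate 2 by a factor between 1.21 (Aqp4) and 1.51 (Aldh1l1). Vim stood at 0.861 and 1.89 on the same ratios. The same order held for 27 of 30 further astrocyte genes, 7 of 8 oligodendrocyte markers and 5 of 6 markers of oligodendrocyte precursors, and for 0 of 12 microglial and 0 of 8 endothelial markers. The oligodendrocyte markers summed to 5440, 5289 and 7589 CPM in WT and 5909 and 6780 CPM in Flox. Nothing in the labels says what the number 4 stands for, and a shared cause was not tested.

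Part of this common variation could be taken out by a ratio to Aldoc within each library, a step chosen after the values had been seen. Slc1a3 then varied least, from 6.50 to 6.87 counts per 100 of Aldoc in WT and with 6.71 and 6.79 in Flox. Gfap still varied, with 75.9, 61.4 and 78.5 in WT and 65.8 and 70.7 in Flox. S100b had 23.7, 23.2 and 22.8 counts per 100 of Aldoc in WT and 29.6 and 32.0 in Flox. Vim had 3.13, 2.25 and 1.82 in WT and 5.30 and 8.12 in Flox. In 2 of the 9 ratios, those of S100b and Vim, both Flox libraries lay above all WT libraries, against 14.0% of all other genes tested when divided by Aldoc in the same way. No test was run on the ratios.

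The genes with the most similar course over the 5 libraries were sought among 11521 genes, by the root mean square difference of their log2 levels after centring each gene on its mean. For Aldoc they were Nek7 (0.0179), Cxcl14 (0.0248) and Slc1a3 (0.0267). Gfap was nearest to Sspn, Aqp4 and Btbd17, and Slc1a3 to Gstm1, Aldoc and Pgk1. Another of the 10 genes was among the 3 nearest for 4 of them (Aldoc, Glul, Gfap and Slc1a3). Vim was nearest to Lgals1 (0.169), Klk6 (0.178) and AU020206 (0.196), and the nearest astrocyte gene to it, S100b, came at rank 517. S100b in turn was nearest to Slc39a12, Magoh and Rpp25l. Slc39a12 is from the list of further astrocyte identity genes and had a log2 fold change of 0.36 (DESeq2 adjusted p = 0.185). Glul, the closest of the 10 to S100b, came at rank 1356. With 5 libraries these are descriptions of likeness only.

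Genes beyond the 10 were taken from lists that were chosen with earlier results of these data known. Of 30 further astrocyte identity genes, 0 passed in DESeq2 or edgeR (3 at an unadjusted p under 0.05 in either), with a median log2 fold change of -0.02 (14 higher and 16 lower). In DESeq2 1 of them passed as higher without WT replicate 4 (Pla2g7). Without Flox replicate 2, with a single Flox library left, their median log2 fold change was 0.096. Ndrg2, a stress-responsive protein of astrocytes, had a log2 fold change of 0.086. Of 12 genes of the endfoot complex and the glial connexins, Gja1 among them, 0 passed in DESeq2 or edgeR (0 at an unadjusted p under 0.05 in either). Of 12 secreted astrocyte proteins, 0 passed in DESeq2 or edgeR (1 and 2 at an unadjusted p under 0.05). Without WT replicate 4, 1 of the 8 with an adjusted p passed as higher in DESeq2 (Cst3). Apoe, the main lipid carrier of the brain, had 58126, 47269 and 66315 normalized counts in WT and 60037 and 96168 in Flox, where only replicate 4 was outside the WT range, and Cst3, a secreted protease inhibitor, had a log2 fold change of 0.29 (95% interval -0.03 to 0.62).

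Genes of the reactive state were read from the 3 lists known as pan-reactive, A1 and A2. Of 32 tested, 4 rose in Flox and 0 fell in DESeq2, against 4.2% and 4.05% of all genes tested. A positive fold change was found in 26, against 7713 of all 15724 genes tested, and the median was 0.48. The 4 were Timp1 and Hspb1 (pan-reactive), Srgn (A1) and Cd109 (A2). Timp1, an inhibitor of matrix proteases, had 66.4, 36.7 and 63.4 normalized counts in WT and 70.1 and 198 in Flox (log2 fold change 1.27, DESeq2 adjusted p = 0.0387). Hspb1, a small heat shock protein, had 113, 127 and 126 in WT and 157 and 304 in Flox (0.92, adjusted p = 0.0230). Neither is made by astrocytes alone.

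Srgn, a proteoglycan of secretory granules in blood and immune cells, had 35.8, 21.4 and 14.4 normalized counts in WT and 52.8 and 106 in Flox (log2 fold change 1.74, DESeq2 adjusted p = 0.00843). Cd109, a membrane protein found on endothelium and platelets, had 17.9, 23.4 and 16.3 in WT and 36.5 and 80.5 in Flox (1.61, adjusted p = 0.0238). In all 4 genes Flox replicate 4 was the highest library, as it was for Vim, S100b and the microglial and endothelial sums given above. Without Flox replicate 4 the log2 fold changes were 0.33 for Timp1, 0.36 for Hspb1, 1.15 for Srgn and 0.92 for Cd109, and DESeq2 gave none of them an adjusted p. The 4 calls also dropped to 1 (Srgn) when WT replicate 2 was left out and to 0 when either of the other WT replicates was, and edgeR with all libraries passed 0 of the 32 (11 at an unadjusted p under 0.05).

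By library, the median log2 level of the 32 reactive genes relative to the WT mean was 0.09, 0.01 and -0.03 in WT and 0.09 and 0.76 in Flox, so that the upward median rested on Flox replicate 4. Without that library the median log2 fold change was -0.06 over the 14 genes that then received an adjusted p. Abundant reactive genes did not pass. Serpina3n, a secreted protease inhibitor that is a common reactive marker, had 2077, 1462 and 2621 normalized counts in WT and 1721 and 3607 in Flox (0.38, DESeq2 adjusted p = 0.76). Cxcl10, a chemokine, had 1533, 1427 and 1309.5 in WT and 921 and 1862 in Flox. H2-D1, a histocompatibility gene whose reads may be shared with close relatives, had 8695, 6699 and 6749 in WT and 6993 and 16695 in Flox. In each of these 3 genes Flox replicate 4 was the highest library and Flox replicate 2 lay below the WT mean.

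**Figure D4:**
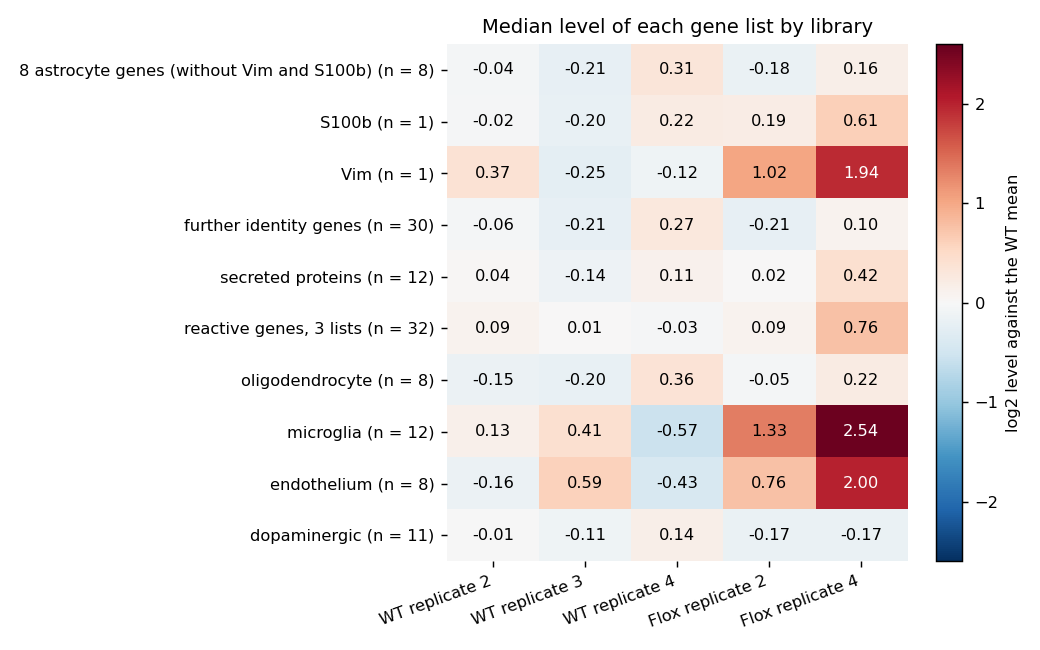
Median log2 level of each gene list in each of the 5 libraries, relative to the mean of the WT libraries, as a colour map with the values printed in the cells. The 8 astrocyte genes other than Vim and S100b reach 0.31 in WT replicate 4 and 0.16 in Flox replicate 4 and are below 0 in the other 3 libraries, while microglial markers reach 1.33 and 2.54 in Flox replicates 2 and 4.

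Regulators of reactivity were read in the same way. Of 12 (Stat3, Socs3, Nfia, Nfib, Sox2 and others), 0 passed in DESeq2 or edgeR (2 and 3 at an unadjusted p under 0.05) and the median log2 fold change was 0.12. Sox2, a transcription factor of neural precursors and astrocytes, had a log2 fold change of 0.14 (95% interval -0.16 to 0.43). For Stat3, the factor that drives Gfap in reactive astrocytes, it was 0.12 (95% interval -0.16 to 0.39).

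Close relatives of the 10 genes were read as a further check on what is shared. Aldoa, the aldolase of muscle and neurons, had 55632, 52404 and 65449 normalized counts in WT and 50591 and 49280.2 in Flox (log2 fold change -0.21, DESeq2 adjusted p = 0.287). Slc1a1, the neuronal glutamate transporter, had 1073, 1128 and 946 in WT and 967 and 946 in Flox. S100a6, a relative of S100b found in several glial and other cells, rose in Flox from 591, 500.4 and 637 to 879 and 1669 normalized counts (log2 fold change 1.14, DESeq2 adjusted p = 5.57e-05). That call was lost without WT replicate 3 (1.05, adjusted p = 0.200) or WT replicate 4 (1.22, adjusted p = 0.0713). Without Flox replicate 4 the log2 fold change of S100a6 was 0.61. S100a1 had a log2 fold change of 0.42 (95% interval -0.30 to 1.15), and Aldh1l2, the mitochondrial relative of Aldh1l1, was low, with 23.9 to 55.8 normalized counts per library.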

How the data were processed

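Libraries were selected for poly(A) and did not keep strand. Reads were trimmed with Trim Galore, aligned with STAR and counted per gene with HTSeq-count by the authors. The paper's methods name the mouse genome build GRCm38, whereas the submitters' processing notes name GRCm39 with STAR 2.7.9a and HTSeq 0.11.3, so no gene coordinates are given and RefSeq promoters carry their own build. The deposited table holds raw read counts per gene for the 5 libraries, without normalization. Its 5 summary lines, with 3.18% to 4.45% of reads outside genes, 5.62% to 5.78% in more than 1 gene and 3.60% to 4.23% aligned to more than 1 place, were left out. Without strand, values of overlapping or antisense genes are uncertain, and close paralogues lose reads.

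Symbols and exon lengths (the union of exons) came from GENCODE release M21, which matched 52093 of 53700 IDs (97.0%). Of 2 IDs named Aldoa the one with more counts was used. The 29407 genes with a count were fitted in R 4.3.3 with DESeq2 1.42.0 (genotype only, two-sided Wald test, independent filtering, Benjamini-Hochberg adjustment), the tool of the study's methods, and "passed" means an adjusted p under 0.05. Fold changes are Flox over WT with 95% Wald intervals. edgeR version 4.0.16, TMM sizes, a filter of 10 counts in 2 libraries, no independent filtering, a replicate block and leaving out each library were alternatives. A fit without a Flox library holds a single Flox library, so its p-values rest on the spread of the WT pools alone. The scripts were tested on simulated data. The floor of 3 counts equals 0.130 to 0.145 CPM and covers counting error only. No 2 libraries agreed within counting noise (chi-square per degree of freedom 4.25 to 45.8).

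Named were the 10 genes, Esrrg, paralogues, up to 3 passed genes per list and direction by fold change, the 2 most abundant of each list, and the 3 genes nearest in pattern (genes with a mean of at least 100). Socs3, Nfia, Nfib, Slc17a7, Tmem212 and some marker genes were named beyond this rule, and some genes that it names are not reported here. The 10 genes and all lists were chosen with earlier results of these data known.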

Additional observations from a re-analysis of the deposited data

How the results depend on the processing

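Vim kept its direction in all 11 alternatives, with log2 fold changes from 0.99 to 1.92. Passing was read only in fits with both Flox libraries. There Vim failed without WT replicate 3, without WT replicate 4 and with the replicate block, and S100b passed only without WT replicate 4. The other 8 genes passed in none. Of the 10 genes, 1 passed as reported, and 0 or 1 passed when a WT library was left out. Of the 74 further astrocyte and reactive genes tested, 4 passed in DESeq2, 0 in edgeR (16 at an unadjusted p under 0.05) and between 0 and 18 when single libraries were left out, the 18 without Flox replicate 2. Over all genes, edgeR passed 236 of 16627 and DESeq2 1297 of 15724. In 11 cases independent filtering left no adjusted p. Keeping the genes with no count in the table was an alternative chosen after seeing the data. The WT and Flox libraries share the replicate numbers 2 and 4 only, and the deviations of same-numbered libraries correlated at 0.0921 and 0.0865 over 16178 genes, and the labels do not say what a number marks, so a pairing was not shown and a shared batch was not tested. With the replicate number as a block, 0 of the 10 genes passed (Vim 1.35, adjusted p = 0.300) and 3 of the 55 list genes with an adjusted p, all lower and all identity genes (Slc6a11, Kcnj10 and Plpp3). Across settings the median of the 10 genes was lowest at -0.19 (Flox replicate 4 left out) and highest at 0.16 (WT replicate 4 left out). With 2 Flox pools, changes within the intervals given could not be seen.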

Other observations

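The filaments of neurons were read beside Gfap and Vim. Of 7 other intermediate filament genes tested, 3 fell in Flox in DESeq2 and 0 rose (0 passed in edgeR, 6 at an unadjusted p under 0.05). Over all genes tested, 4.05% fell and 4.2% rose in DESeq2. Nefm, the middle neurofilament subunit of axons, had 22819, 20452 and 22985 normalized counts in WT and 17264 and 14712 in Flox (log2 fold change -0.47, DESeq2 adjusted p = 0.0015). Nefh, the heavy subunit, had 6789, 6712 and 5191 in WT and 5120.2 and 3489 in Flox (-0.53, adjusted p = 0.0248). Ina, the neuronal filament protein internexin, had 14747, 13593 and 14024 in WT and 11827 and 10391 in Flox (-0.35, adjusted p = 0.0153). In all 3 genes both Flox libraries lay below every WT library, as they did for 22.5% of all genes tested. For Vim both lay above every WT library. The 3 calls dropped to 0 without WT replicate 2 or Flox replicate 4, and to 1 (Nefm) without WT replicate 3. The light subunit Nefl had a log2 fold change of -0.22 (adjusted p = 0.143).

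Genes that handle glutamate and glutamine outside the astrocyte transporters pointed downward. All 11 tested had a negative fold change, with a median of -0.27, against 8011 of all 15724 genes tested. In DESeq2 2 of the 11 fell (0 in edgeR, 4 at an unadjusted p under 0.05), against 4.05% of all genes tested. Slc38a1, a glutamine carrier of neurons, had 7002, 7221 and 6822 normalized counts in WT and 5803 and 5108 in Flox (log2 fold change -0.36, DESeq2 adjusted p = 0.00978). Gls2, a glutaminase, had 1017, 972 and 1168 in WT and 851 and 716 in Flox (-0.43, adjusted p = 0.0383). Both calls were lost without WT replicate 2 or WT replicate 3, and that of Gls2 also without WT replicate 4 (-0.35, adjusted p = 0.136). Without Flox replicate 4 the log2 fold changes were -0.28 for Slc38a1 and -0.31 for Gls2. Slc17a7, the vesicular glutamate transporter of cortical neurons, varied with the library number, at 2974, 2772 and 390.1 in WT replicates 2, 3 and 4 and 2303 and 800.3 in Flox replicates 2 and 4, the opposite order to that of the astrocyte genes.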
